A study of Rattus norvegicus with 26 samples.

Results

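The genes described are markers of lymphocytes, the T and B cells of adaptive immunity, in rat spinal cord after injury. They were chosen by name as Cd3d, Cd3e, Cd3g, Cd8a and Lck for T cells and Cd79a, Cd79b and Ms4a1 for B cells. Of these 8 genes, 7 were among the 32883 genes analysed, and Cd79a was not analysed here. All 7 passed the filter on low counts, which left 17990 genes for testing.

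Poly(A) RNA sequencing gave 26 libraries of 5 mm thoracic spinal cord segments from wild type female Sprague-Dawley rats, labelled as postnatal day 70 in all 8 groups. Intact rats (4 libraries) were intact or sham animals, and in every other group the cord had been compressed for 1 min by a clip of 60 g force. The sub-SCI group (3 libraries) was injured and taken at the time of transplantation, 7 days after injury. At that time the other injured rats received hUC-MSCs (+MSC), which are mesenchymal stem cells from human umbilical cord, or the vehicle PBS (+PBS) into the lumbar intrathecal space, and tissue was taken 1, 2 or 4 weeks post-transplantation (wpt). There were 3, 2 and 4 libraries of +PBS-1w, +PBS-2w and +PBS-4w, and 3, 3 and 4 of +MSC-1w, +MSC-2w and +MSC-4w. Per the study's methods, rats were given cyclosporin A daily over the entire experiment to suppress rejection of the human cells, and it is not said whether Intact and sub-SCI rats also received it. Cyclosporin A blocks calcineurin and with it T cell activation, so the T cell genes were measured under a drug that acts on T cells, and the drug was not varied among the +PBS and +MSC groups. The study's methods call the libraries of a group biological replicates, but no source used here ties each library to an animal, so the p-values measure the spread between these libraries.

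The CD3 chains Cd3d, Cd3e and Cd3g carry the signal of the T cell receptor into the cell, and Lck is the kinase that phosphorylates them. Cd8a encodes a chain of the CD8 co-receptor of cytotoxic T cells, which in the rat is also made by natural killer (NK) cells and by some macrophages. Cd79a and Cd79b are the signalling chains of the B cell receptor, and Ms4a1 encodes CD20 on the B cell surface. The healthy cord holds few lymphocytes, and T cells enter it after injury. Cd3g and Cd3d are neighbours that are read away from each other, with annotated starts 1601 bases apart.

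The sequence before the annotated start is shown for the CD3 genes, which all rose from Intact to sub-SCI, and for Cd8a, which stood apart from them in level. RefSeq (build GRCr8) gave a promoter for 6 of the 8 genes by symbol, and the 250 bases before the start were searched on both strands for the Runx motif TGTGGT, for the E-box of E2A, spelled CAGGTG, for the octamer ATGCAAAT, for the ETS motif CCGGAA and for the box TATAAA. Capitals mark a match.
Cd3d, chr8:54185269-54185518, plus strand: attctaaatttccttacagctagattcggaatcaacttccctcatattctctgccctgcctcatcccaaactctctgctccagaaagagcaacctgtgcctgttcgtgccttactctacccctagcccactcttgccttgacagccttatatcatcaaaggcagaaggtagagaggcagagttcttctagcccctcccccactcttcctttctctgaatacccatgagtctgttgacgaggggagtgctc
Cd3g, chr8:54183919-54184168, minus strand: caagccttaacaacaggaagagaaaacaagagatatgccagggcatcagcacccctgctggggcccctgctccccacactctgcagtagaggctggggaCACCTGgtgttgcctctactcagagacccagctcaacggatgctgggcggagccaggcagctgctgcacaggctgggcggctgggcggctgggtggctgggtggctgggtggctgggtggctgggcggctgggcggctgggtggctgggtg
Cd3e, chr8:54211771-54212020, minus strand: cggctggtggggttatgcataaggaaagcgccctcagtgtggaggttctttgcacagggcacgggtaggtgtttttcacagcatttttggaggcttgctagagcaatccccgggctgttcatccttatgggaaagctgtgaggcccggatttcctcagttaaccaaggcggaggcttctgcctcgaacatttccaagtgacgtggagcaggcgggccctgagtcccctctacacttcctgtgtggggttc
Cd8a, chr4:104923866-104924115, plus strand: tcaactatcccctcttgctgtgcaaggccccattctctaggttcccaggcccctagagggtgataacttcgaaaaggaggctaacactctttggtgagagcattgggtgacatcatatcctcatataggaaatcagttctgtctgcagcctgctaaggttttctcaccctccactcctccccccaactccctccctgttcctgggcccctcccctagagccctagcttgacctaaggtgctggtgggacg
Of these 4 stretches, Cd3g held 1 match, the E-box read on the opposite strand, and the other 3 held none of the 5 motifs. The E-box occurred in 15.9% of 33469 promoters of the same length, the Runx motif in 14.5%, the box TATAAA in 12.9%, the ETS motif in 12.6% and the octamer in 1.6%. Lck has a pair of annotated starts, of which the stretch before one held an E-box match and that before the other a Runx match, and the stretch of Cd79a held an E-box match. Cd79b and Ms4a1 had no entry.

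Total counts per library lay between 19496602 and 43468509, so the lowest values below rest on a few reads. Libraries numbered as replicate 1 deviated together from their groups in 10 of 13 pairs (correlation of deviations above 0.1; range -0.0781 to 0.317), which no label accounts for. Replicates 2, 3 and 4 did so in 1 of 13, 4 of 11 and 1 of 3 pairs. The pairs of a number share libraries, so they are not independent, and 1 unusual library can enter many of them. Summed levels of 5 oligodendrocyte genes (11200 to 53800 CPM, counts scaled to library size), of 5 astrocyte genes (4760 to 20100 CPM) and of 6 neuron genes (199 to 6030 CPM) were found in all libraries, which are genes of the labelled tissue. Summed skeletal muscle genes reached 350 CPM in Intact replicate 4 and 235 CPM in +PBS-4w replicate 2, against a group median of at most 42.9 CPM. In bulk tissue, fewer cells of a type and less RNA per cell cannot be told apart.

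T cell genes were low in Intact cord, the CD3 chains at a few reads per library, and were higher in the injured cord at the time of transplantation. Cd8a rose from 0.312 to 168 CPM, Cd3e from 0.0938 to 4.26 CPM, Cd3g from 0.158 to 3.97 CPM, Cd3d from 0.0783 to 2.33 CPM and Lck from 1.26 to 9.72 CPM (group means). All 5 T cell genes were called higher in sub-SCI, against 16.6% of all genes tested. A gene was called when its adjusted p was under 0.01 and its log2 fold change was beyond 1 in either direction. The adjusted p came from the quasi-likelihood test of edgeR, corrected over all genes tested by the Benjamini-Hochberg method.

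Cd8a was counted at 0.164, 0.366, 0.185 and 0.532 CPM in the 4 Intact libraries and at 178, 159 and 168 CPM in the 3 sub-SCI libraries. The groups lay far apart (8.995 ± 0.53 on the log2 scale, fold change ± SE, adjusted p = 2.52e-11). Cd3e was at 0, 0, 0.185 and 0.19 CPM in Intact and at 4.56, 4.78 and 3.42 CPM in sub-SCI (5.35 ± 0.88, adjusted p = 2.1e-05). Cd3g was at 0.273, 0, 0.0925 and 0.266 CPM in Intact and at 4.8, 4.31 and 2.81 CPM in sub-SCI (4.61 ± 0.86, adjusted p = 8.78e-05). Sub-SCI replicate 3 was the lowest of its group for each of the 3 CD3 chains. Cd3d was at 0, 0.229, 0.0463 and 0.038 CPM in Intact and at 2.65, 2.61 and 1.73 CPM in sub-SCI (4.80 ± 0.81, adjusted p = 2.65e-05). Lck, already counted in Intact cord at 0.655, 1.6, 1.11 and 1.67 CPM, reached 9.56, 10.3 and 9.26 CPM (2.93 ± 0.42, adjusted p = 3.6e-06). The 4 Intact libraries held 7 reads of Cd3d, 9 of Cd3e and 14 of Cd3g in all, so the size of these fold changes depends on few reads, while the calls held in each alternative setting tried.

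The same direction was seen 1 and 4 weeks after the vehicle. In +PBS-1w, 5 of 5 T cell genes were called higher than in Intact (13.5% of all genes tested), with log2 fold changes of 8.16 ± 0.52 for Cd8a, 4.69 ± 0.88 for Cd3e, 4.11 ± 0.82 for Cd3d, 3.94 ± 0.86 for Cd3g and 2.09 ± 0.42 for Lck. In +PBS-4w, 5 of 5 were called (13.3% of all genes tested), with 5.51 ± 0.49 for Cd8a, 4.02 ± 0.87 for Cd3e, 3.15 ± 0.84 for Cd3g, 3.10 ± 0.81 for Cd3d and 1.63 ± 0.40 for Lck. In +PBS-2w, which has 2 libraries, 1 of 5 was called (8.84% of all genes tested), namely Cd8a at 6.13 ± 0.52 (adjusted p = 1.87e-08). Cd3e just missed the threshold there (3.31 ± 0.97, adjusted p = 0.0108) and was called by DESeq2 on all libraries (adjusted p = 0.00142). These comparisons share the Intact libraries. At 4 wpt the calls of Cd3d and Cd3g were lost when single Intact libraries were left out (adjusted p = 0.0111 for Cd3d and 0.013 for Cd3g without replicate 3, 0.0125 for Cd3d without replicate 4, 0.0116 for Cd3g without replicate 2), and that of Cd3g also without +PBS-4w replicate 1 (0.0108).

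With hUC-MSCs, part of the T cell genes were also called higher than in Intact. In +MSC-1w, 4 of 5 were called higher (7.87% of all genes tested): Cd8a at 5.96 ± 0.51, Cd3e at 4.03 ± 0.89, Cd3d at 3.22 ± 0.84 and Lck at 1.68 ± 0.42, while Cd3g at 3.08 ± 0.87 had an adjusted p of 0.0101. In +MSC-2w, 1 of 5 was called (5.6% of all genes tested), Cd8a at 5.26 ± 0.51. In +MSC-4w, 4 of 5 were called (7.25% of all genes tested): Cd8a at 5.20 ± 0.49, Cd3e at 3.78 ± 0.86, Cd3g at 3.35 ± 0.83 and Lck at 1.78 ± 0.39, while Cd3d at 2.76 ± 0.81 had an adjusted p of 0.0135. The libraries of +MSC-4w and Intact overlapped for Cd3d, Cd3e, Cd3g and Lck. In an edgeR fit of those 2 groups alone only Cd8a was called, Lck had an adjusted p of 0.02, and Cd3e and Cd3g did not pass the filter on low counts. Of the calls at 1 wpt, Cd3d was lost without Intact replicate 1, 3 or 4 (adjusted p = 0.0181, 0.0194 and 0.0202) or +MSC-1w replicate 3 (0.0537), and Lck without Intact replicate 1 or 3 (0.0148 and 0.0135) or +MSC-1w replicate 1 or 3 (0.0141 and 0.0209). Of those at 4 wpt, Cd3e was lost without +MSC-4w replicate 2 (adjusted p = 0.0163), Cd3g without Intact replicate 2 or 3 (0.0157 and 0.0176) or +MSC-4w replicate 2 or 3 (0.017 and 0.0216), and Lck without +MSC-4w replicate 3 (0.012). Cd8a was called in every comparison with Intact and under each setting tried.

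**Figure D1:**
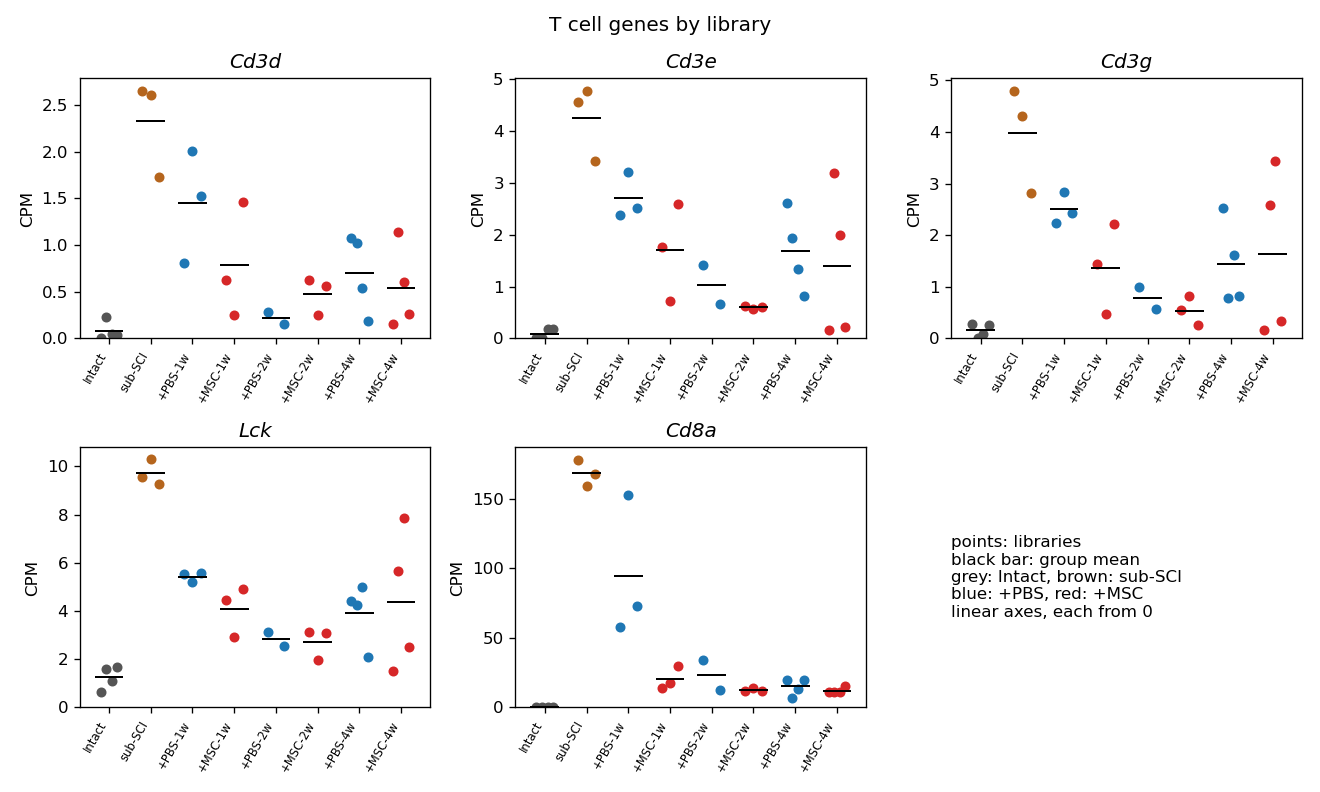
Level of the 5 T cell genes in each of the 26 libraries (points, CPM on linear axes from 0) by group, with the group mean as a black bar. The mean of sub-SCI is the highest for each gene, Cd8a reaches 178 CPM there, and the points of +MSC-4w spread widely for the CD3 chains and Lck but not for Cd8a.

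The order of the 8 group means was alike at its upper end. Each of the 5 T cell genes was highest in sub-SCI, second in +PBS-1w and lowest in Intact. Below these the order differed between genes, with neighbouring means mostly closer than their spread. For Cd3e the means were 1.70 ± 0.937 CPM (SD) in +MSC-1w, 1.68 ± 0.769 in +PBS-4w, 1.39 ± 1.47 in +MSC-4w, 1.03 ± 0.532 in +PBS-2w and 0.606 ± 0.0277 in +MSC-2w. For Cd8a they were 23.1 ± 15.1 in +PBS-2w, 20.5 ± 8.3 in +MSC-1w, 15.1 ± 6.21 in +PBS-4w, 12.6 ± 1.45 in +MSC-2w and 12.1 ± 2.48 in +MSC-4w. Per length of transcript, Cd8a in sub-SCI was at 121 ± 7.12 RPKM (CPM divided by transcript length in kb, ± SD), above Cd3g at 6.44 ± 1.67, Lck at 4.68 ± 0.266, Cd3d at 3.23 ± 0.72 and Cd3e at 2.84 ± 0.487 RPKM.

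Between sub-SCI and the later vehicle group, Cd8a fell by 3.48 ± 0.38 on the log2 scale in +PBS-4w (adjusted p = 3.31e-06), and it was the single one of the 7 genes called (3.09% of all genes tested were called lower). Lck (-1.30 ± 0.39, adjusted p = 0.0191), Cd3d (-1.70 ± 0.64, 0.0546), Cd3g (-1.46 ± 0.70, 0.135) and Cd3e (-1.33 ± 0.68, 0.158) did not pass the test, although none of their libraries overlapped between these groups (13.8% of all genes tested were lower with no overlap). In +MSC-4w, Cd8a was lower than in sub-SCI by a log2 fold change of -3.80 ± 0.39 (adjusted p = 9.83e-07), again as the single call among the 7 (6.1% called lower). From +PBS-1w to +PBS-4w, Cd8a fell by 2.65 ± 0.37 (adjusted p = 0.00216), 1 of only 6 genes called lower of all tested (0.0334%). That call was lost without +PBS-1w replicate 2 (adjusted p = 0.0166) or +PBS-4w replicate 2 or 3 (0.0127 and 0.0108) and in a fit of those 2 groups alone (0.248). From +MSC-1w to +MSC-4w none of the 7 was called, and Cd8a differed by -0.76 ± 0.37. By edgeR no gene of all those tested was called there (0% called), 672 had an unadjusted p under 0.05, and DESeq2 on all libraries called 1.

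The question of the treatment comparison was whether these genes differed between rats given hUC-MSCs and rats given vehicle in the same week. At 1 wpt, Cd8a was at 57.6, 153 and 72.8 CPM in +PBS-1w and at 14.1, 17.6 and 29.9 CPM in +MSC-1w. Every +MSC-1w library was below every +PBS-1w library, as for 11.6% of all genes tested, and Cd3g and Lck were also lower without overlap. The log2 fold change of Cd8a was -2.21 ± 0.41 with an adjusted p of 0.0347, which missed the threshold. DESeq2 called it lower on all libraries (adjusted p = 9.01e-05) and on the 2 groups (1.57e-05). The share of all genes that DESeq2 called at 1 wpt is not given here. The study's own DESeq2 analysis listed many more genes at 1 wpt than edgeR called here, so a DESeq2 call is less rare than an edgeR call. No member was called by edgeR at 1 wpt (2 of all genes tested were called, 0.0111%, both lower), and Cd8a and Ms4a1 had an unadjusted p under 0.05.

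The CD3 chains and Lck were lower on average at 1 wpt by less than the spread could resolve. Cd3e was at 2.38, 3.21 and 2.52 CPM in +PBS-1w and at 1.77, 0.729 and 2.6 CPM in +MSC-1w (log2 fold change -0.67 ± 0.73, adjusted p = 0.689). Cd3g was at 2.23, 2.84 and 2.44 CPM in +PBS-1w and at 1.44, 0.474 and 2.21 CPM in +MSC-1w (-0.86 ± 0.77, adjusted p = 0.603). Cd3d was at 0.803, 2.01 and 1.52 CPM in +PBS-1w and at 0.631, 0.255 and 1.46 CPM in +MSC-1w (-0.89 ± 0.69, adjusted p = 0.54). Replicate 2 of +MSC-1w was the lowest library of its group for each chain. Lck was at 5.53, 5.19 and 5.56 CPM in +PBS-1w and at 4.45, 2.92 and 4.92 CPM in +MSC-1w (-0.41 ± 0.43, adjusted p = 0.673).

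At 2 wpt no member was called. By edgeR no gene of all those tested was called (0% called), 2219 had an unadjusted p under 0.05, none of them a member, and DESeq2 on all libraries called 3 higher and 21 lower. Cd8a was at 33.8 and 12.5 CPM in +PBS-2w and at 12.1, 14.2 and 11.5 CPM in +MSC-2w, so that the difference of -0.87 ± 0.44 came from +PBS-2w replicate 1 and was 0.03 without it. Cd3e was at 1.41 and 0.656 CPM in +PBS-2w and at 0.627, 0.575 and 0.617 CPM in +MSC-2w (-0.76 ± 0.88, adjusted p = 0.773). Cd3g (-0.50 ± 0.93) and Lck (-0.06 ± 0.49) differed less than their errors, and Cd3d was at 0.288 and 0.156 CPM in +PBS-2w and at 0.627, 0.246 and 0.565 CPM in +MSC-2w (1.09 ± 0.90, adjusted p = 0.648). At 4 wpt no member was called either, with 89 of all genes tested called, each of them higher (0.495%). Cd8a was at 20, 7.02, 13.4 and 20 CPM in +PBS-4w and at 10.9, 10.9, 10.8 and 15.8 CPM in +MSC-4w (-0.32 ± 0.35, adjusted p = 0.623). The differences were -0.34 ± 0.62 for Cd3d, -0.24 ± 0.64 for Cd3e, 0.20 ± 0.67 for Cd3g and 0.16 ± 0.37 for Lck. The groups overlapped for all 7 genes. None of the 7 had an unadjusted p under 0.05 at 4 wpt, and by DESeq2 none was called.

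Over the 3 weeks together, Cd8a was lower with hUC-MSCs by a log2 fold change of -1.13 ± 0.23 (adjusted p = 0.00208), the single member called (0.956% of all genes tested were called lower). The call was lost without +PBS-1w replicate 2, where the fold change of -0.95 fell short of the threshold, and without +PBS-2w replicate 1 (-0.86, adjusted p = 0.0274). The other T cell genes differed by -0.56 ± 0.44 (Cd3e), -0.39 ± 0.46 (Cd3g), -0.10 ± 0.25 (Lck) and -0.05 ± 0.47 (Cd3d). Whether the treatment difference changed from 1 to 4 wpt was tested directly. For Cd8a the change was 1.89 ± 0.53 with an unadjusted p of 0.00167 and an adjusted p of 0.999, and by edgeR no gene was called in that test (0% called, 702 of all genes tested with an unadjusted p under 0.05).

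**Figure D2:**
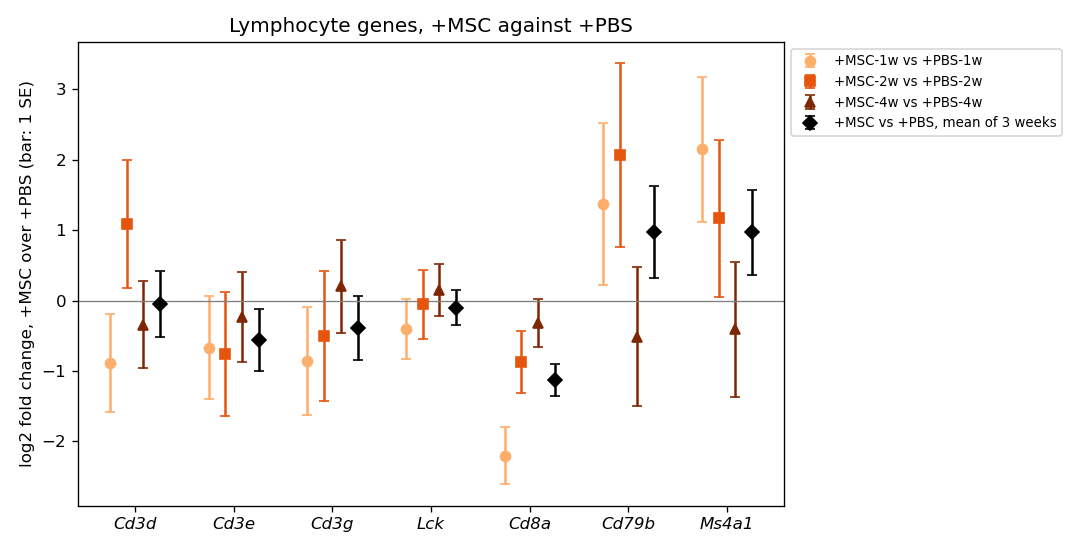
Log2 fold change of +MSC over +PBS (points; bars are 1 SE) for the 7 genes at each week and as the mean of the 3 weeks. Cd8a lies lowest at 1 wpt (-2.21) and comes nearer to 0 at 2 and 4 wpt (-0.87 and -0.32), while the points of Cd79b lie at 1.37, 2.07 and -0.52 with wide bars.

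The ratio of Cd8a to the CD3 chains was not constant over the groups. The ratio of Cd8a to the sum of the CD3 chains, in reads per kb within a library, had a median of 8.87 in sub-SCI (8.28 to 13.1), 6.77 in +PBS-1w (6.57 to 11.6), 7.00 in +PBS-2w (5.74 to 8.26) and 2.11 in +PBS-4w (1.27 to 6.71). It was 2.94 in +MSC-1w (2.31 to 7.89), 4.99 in +MSC-2w (4.03 to 5.12) and 5.89 in +MSC-4w (0.997 to 13.4). In Intact it was 0.511, from 5 to 13 CD3 reads per library. Few CD3 reads, 12 and 19, also lie behind the +MSC-4w ratios of 13.4 (replicate 1) and 10.8 (replicate 4).

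Among the injured groups, the 4 +MSC-4w libraries spread most in the ratio of Cd8a to the CD3 chains. They held 12, 316, 169 and 19 CD3 reads in replicates 1 to 4, so the high ratios are imprecise. Cd3e was at 0.159, 3.19, 2 and 0.215 CPM, Cd3g at 0.159, 2.58, 3.43 and 0.344 CPM, Cd3d at 0.159, 1.14, 0.608 and 0.258 CPM and Lck at 1.51, 5.64, 7.84 and 2.49 CPM in replicates 1 to 4. Replicates 2 and 3 were thus high for the CD3 chains and Lck alike, and replicates 1 and 4 were near the Intact level of Cd3e. Cd8a was at 10.9, 10.9, 10.8 and 15.8 CPM in the same libraries, highest in one of those low in CD3.

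Cd8b, which encodes the second chain of the CD8 co-receptor, rose from 0.0995 CPM in Intact to 33.7 CPM in sub-SCI (log2 fold change 8.30 ± 0.42, adjusted p = 4.86e-12). It was at 25.2, 14.2 and 14.6 CPM in +PBS and at 13, 10.2 and 11.1 CPM in +MSC at 1, 2 and 4 wpt. Over the 3 weeks it differed by -0.61 ± 0.17 between +MSC and +PBS (adjusted p = 0.0147). The ratio of Cd8a to Cd8b per kb had a median of 5.65 in sub-SCI and 3.54 in +PBS-1w, and 1.11 to 1.63 in the other 5 injured groups.

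**Figure D3:**
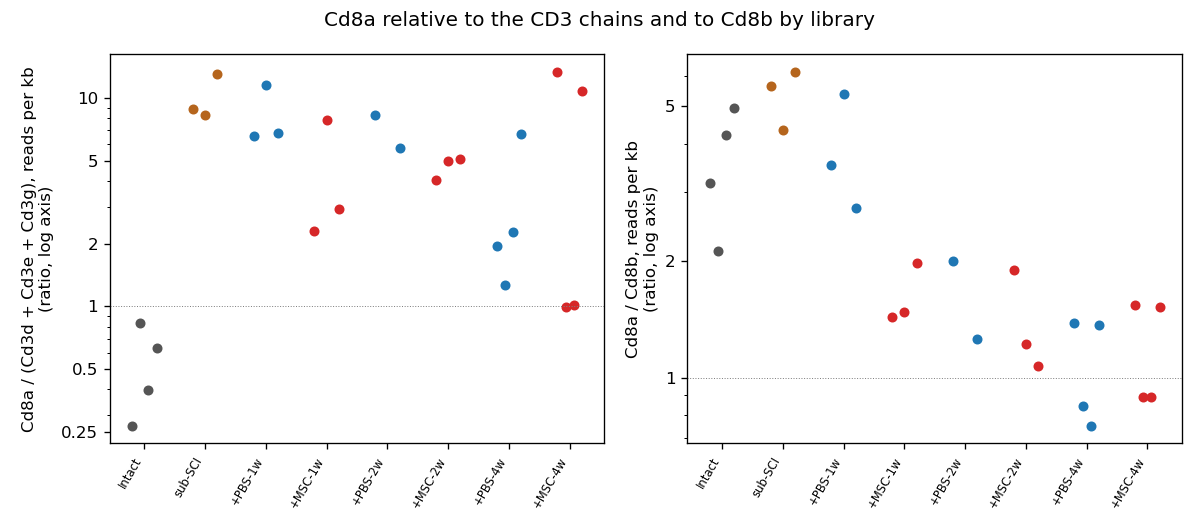
Ratio of Cd8a to the summed CD3 chains (left) and to Cd8b (right) in each library, in reads per kb on log axes, by group. On the left the +MSC-4w libraries spread from 0.997 to 13.4, the latter from 12 CD3 reads. On the right sub-SCI (4.35 to 6.14) lies above the 4 wpt groups (0.752 to 1.54).

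Macrophages can make Cd8a and Cd4 in the rat, so genes of microglia and macrophages are given beside Cd8a. Of 12 such genes, 9 were called higher in sub-SCI than in Intact (16.6% of all genes tested). The summed level of the 12 was 315 to 638 CPM in Intact, 4360 to 5230 in sub-SCI, 3720 to 4950 in +PBS-1w and 2530 to 2640 in +MSC-1w. Lyz2 (lysozyme) had the largest part in the sum at 1 wpt, with means of 2120 CPM in +PBS-1w and 977 CPM in +MSC-1w. The fall of the sum is therefore not an even fall of the 12 genes. P2ry12 (means of 51.9 and 49.7 CPM) and Tmem119 (71.5 and 68.8 CPM) differed little between these groups. Cd68, a lysosomal protein of phagocytes, was at 629, 318 and 655 CPM in +PBS-1w and at 270, 199 and 216 CPM in +MSC-1w. All 12 had a negative log2 fold change at 1 wpt (median -0.46, beside -0.0018 over all genes tested). None was called there, beside 0.0111% of all genes tested. From sub-SCI to +PBS-4w, where Cd8a fell, 1 of the 12 was called lower (median of the 12 -0.55), beside 3.09% of all genes tested. Between treatments at 4 wpt 5 were positive and 7 negative. Over the 3 weeks Lyz2 was called lower (-1.11 ± 0.25, adjusted p = 0.00386). In +PBS-1w the library highest in Cd8a, replicate 2, was the lowest of its group in Cd68, Ptprc, Aif1 and Lyz2. It was the highest in Adgre1, P2ry12 and Tmem119, and lay between the other libraries in the rest of the 12. This look at single genes was made after their values were seen. Of the genes of neurons, 6 of 6 were called lower in sub-SCI than in Intact (17.5% of all genes tested). Over the 3 weeks, 3 of 6 were called higher with hUC-MSCs (Rbfox3, Nefl and Slc17a6), beside 1.61% of all genes tested. The summed level of the 6 was 545 to 1110 CPM in +PBS-1w and 1790 to 3290 CPM in +MSC-1w. The part of macrophage RNA, or of the share of neural tissue, in the Cd8a level was not tested.

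**Figure D4:**
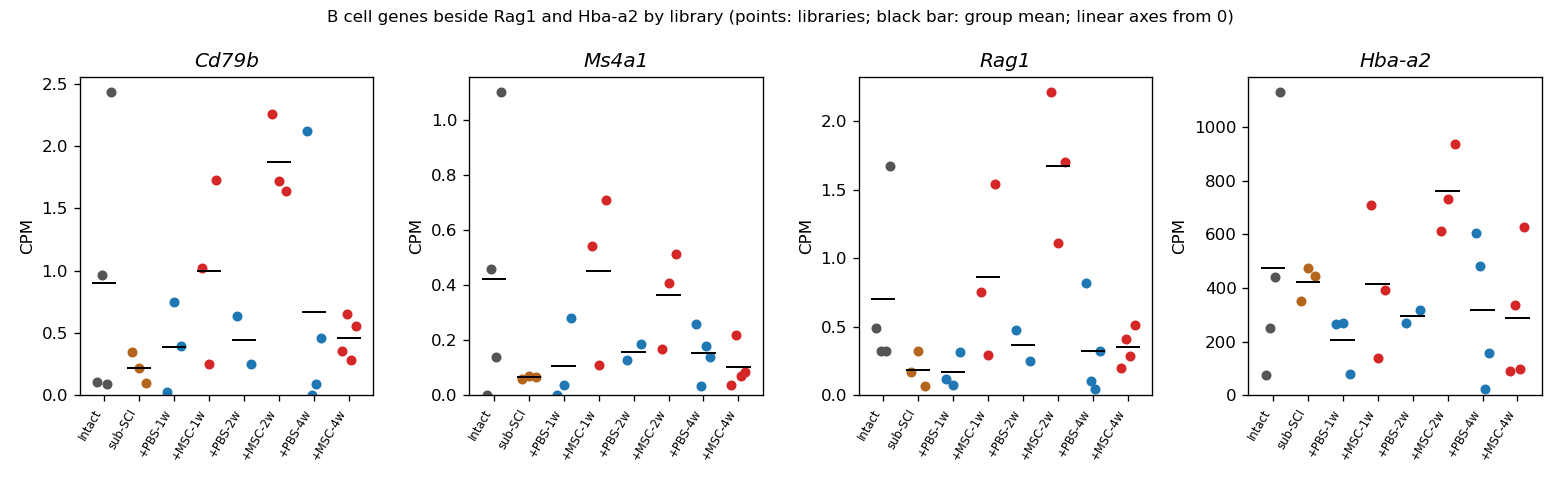
Level of Cd79b, Ms4a1, Rag1 and Hba-a2 in each library (points, CPM on linear axes from 0) by group, with the group mean as a black bar. Intact replicate 4 (2.43 CPM of Cd79b) is the highest of its group in all 4 panels, and +MSC-2w (1.64 to 2.26 CPM of Cd79b) has the highest group mean for Cd79b, Rag1 and Hba-a2.

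Neither B cell gene was called higher after injury, and both had negative log2 fold changes in sub-SCI. Cd79b was at 0.109, 0.962, 0.0925 and 2.43 CPM in Intact and at 0.349, 0.217 and 0.102 CPM in sub-SCI (log2 fold change -2.01 ± 1.15, adjusted p = 0.136). Without Intact replicate 4 the fold change was -0.80. Ms4a1 was at 0, 0.458, 0.139 and 1.1 CPM in Intact and at 0.0581, 0.0725 and 0.0678 CPM in sub-SCI, which is 2 reads in each of the 3 libraries (-2.66 ± 1.04, adjusted p = 0.0312), and without Intact replicate 4 the fold change was -1.57. Replicate 4 was the highest Intact library for both genes, and also for the summed skeletal muscle genes. Neither gene was called by edgeR in any of the 16 comparisons. Ms4a1 had 29 reads or fewer in each library, and Cd79b 64 or fewer, so differences of severalfold were within the error of these tests.

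Between treatments the B cell genes had positive log2 fold changes at 1 and 2 wpt. Cd79b was at 0.0297, 0.746 and 0.4 CPM in +PBS-1w and at 1.02, 0.255 and 1.73 CPM in +MSC-1w (1.37 ± 1.15, adjusted p = 0.573). At 2 wpt it was at 0.64 and 0.25 CPM in +PBS-2w and at 2.26, 1.72 and 1.64 CPM in +MSC-2w, without overlap, as for 18.6% of all genes tested (2.07 ± 1.30, adjusted p = 0.521). DESeq2 on those 2 groups called it higher (adjusted p = 0.00762), and none of the other settings did. At 4 wpt it was at 2.12, 0, 0.0895 and 0.459 CPM in +PBS-4w and at 0.358, 0.656, 0.286 and 0.559 CPM in +MSC-4w (-0.52 ± 0.99), and without +PBS-4w replicate 1 the fold change turned to 1.39. Ms4a1 differed by 2.15 ± 1.03, 1.17 ± 1.12 and -0.41 ± 0.96 at 1, 2 and 4 wpt.

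Hba-a2 and Rag1, the latter chosen after its values were seen, are given beside Cd79b. Hba-a2, a hemoglobin chain of red cells, was at 77.8, 250, 441 and 1130 CPM in Intact, 271 and 318 CPM in +PBS-2w, 612, 731 and 938 CPM in +MSC-2w and 606, 483, 24 and 157 CPM in +PBS-4w. Rag1, a recombinase of developing lymphocytes, was at 0.491, 0.321, 0.324 and 1.67 CPM in Intact, 0.48 and 0.25 CPM in +PBS-2w, 2.21, 1.11 and 1.7 CPM in +MSC-2w and 0.82, 0.106, 0.0447 and 0.321 CPM in +PBS-4w. Intact replicate 4 and +PBS-4w replicate 1 were the highest of their groups in Cd79b, Hba-a2 and Rag1, whereas +PBS-4w replicate 2 had 483 CPM of Hba-a2 and no read of Cd79b. Intact replicate 4 and +PBS-4w replicate 2 were also the highest of their groups in the summed skeletal muscle genes. At 2 wpt 5 of 5 erythroid genes had a positive log2 fold change between treatments (median 1.37), and of 6 early B cell and marrow precursor genes tested 2 were positive and 4 negative (median -0.24). Summed erythroid genes ranged from 109 to 1810 CPM in Intact and from 910 to 1370 CPM in +MSC-2w. In the treatment comparisons 0 of 5 were called, beside at most 2.57% of all genes tested. The part of blood or of marrow cells in the B cell values was not tested.

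Other T cell genes were also called higher in the injured cord. Of 26 listed T cell genes, 23 were tested. In sub-SCI, 18 were called higher than in Intact (16.6% of all genes tested) and 0 lower (17.5%). The median log2 fold change was 2.32, beside -0.02 over all genes tested. The 4 most abundant were Cd4 (2.20 ± 0.33), the adaptor Lcp2 (3.36 ± 0.22), Cd8b and the surface receptor Cd6 (2.40 ± 0.28). Cd4 is the co-receptor of helper T cells, and in the rat macrophages can also make it. Over all libraries Cd4 and Lcp2 had means of 129 and 53.4 CPM, against 0.802 to 1.64 CPM for the CD3 chains. Cd4 went from 25.1 CPM in Intact to 115 in sub-SCI and 191 in +PBS-1w, while the mean of each CD3 chain was lower in +PBS-1w than in sub-SCI. Of genes chosen after their values were seen, Cd247, the zeta chain of the receptor, had 4.67 ± 0.89, the kinase Zap70 had 2.19 ± 0.41, and Foxp3, the factor of regulatory T cells, was not called (-0.41 ± 0.31). The count of T cell genes called higher than in Intact was 14 of 23 in +PBS-1w (13.5% over all genes tested), 4 in +PBS-2w (8.84%) and 7 in +PBS-4w (13.3%). It was 5 in +MSC-1w (7.87%), 4 in +MSC-2w (5.6%) and 8 in +MSC-4w (7.25%). In +PBS-4w 1 was called lower (10.7% over all genes tested). Of the 23, 0 were called between +MSC and +PBS in any week or over the 3 weeks. Over all genes tested, 0.0111%, 0% and 0.495% were called at 1, 2 and 4 wpt and 2.57% over the 3 weeks. With so few calls, 0 among 23 says little about these genes.

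Of 14 cytotoxic and NK genes in the table, 11 were tested and 10 were called higher in sub-SCI than in Intact (16.6% of all genes tested). Among the most abundant, Ctsw, a cathepsin of cytotoxic lymphocytes, had 3.40 ± 0.71, the NK receptor Ncr3 had 4.24 ± 0.53 and the cystatin Cst7 had 3.14 ± 0.54, while the granzyme Gzmm (0.61 ± 0.50) was not called. Their summed level was 2.29 to 8.25 CPM in Intact, 42.1 to 49.7 in sub-SCI, 18.4 to 25 in +PBS-1w and 13.1 to 18.6 in +MSC-1w. None of the 11 was called between treatments, beside at most 2.57% of all genes tested. Gzmb, Klrb1 and Ncr1 of the same list, chosen after their values were seen, held 3, 0 and 7 reads in all sub-SCI libraries together.

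Of 12 genes listed for T cell activation under calcineurin, the enzyme that cyclosporin A blocks, 7 did not pass the filter. Il2 and Ifng, cytokines of activated T cells chosen after their values were seen, had group means of 0 to 0.0243 CPM and 0 to 0.072 CPM. Of the 5 tested, Nfatc1 (2.00 ± 0.23) and the early activation marker Cd69 (2.96 ± 0.87) were called higher and Nfatc2 (-2.04 ± 0.22) lower in sub-SCI than in Intact, and Il2ra, a chain of the interleukin 2 receptor, was at 0.7 and 0.768 CPM. The factors Nfatc1 and Nfatc2 are also made by other cells.

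Of 15 attractants and survival factors of lymphocytes, 8 were called higher in sub-SCI than in Intact (16.6% of all genes tested). Among them were the chemokine Cxcl16 (2.77 ± 0.31) and the adhesion molecule Icam1 (2.87 ± 0.25), while Cxcl12 (0.50 ± 0.37) and Vcam1 (0.50 ± 0.13) were not called. Over the 3 weeks 13 of the 15 had a negative log2 fold change between +MSC and +PBS (median -0.47, beside -0.02 over all genes tested). Of the 15, 0 were called there, beside 2.57% of all genes tested. Of 10 tested chemokine and homing receptors, 6 were called higher in sub-SCI (16.6% of all genes tested), including Cxcr4 (3.26 ± 0.27) and the integrin chain Itgal (4.22 ± 0.31). Between treatments 0 of the 10 were called, beside at most 2.57% of all genes tested.

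Of 18 other B cell genes, 5 were called higher and 2 lower in sub-SCI than in Intact (median 0.14). Over all genes tested, 16.6% were called higher and 17.5% lower. Of the 4 most abundant, the adaptor Blnk (2.95 ± 0.20), the tetraspanin Cd37 (3.02 ± 0.26) and the lectin Cd22 (2.04 ± 0.61) rose, and the factor Ebf1 (-1.26 ± 0.26) fell. Blnk and Cd37 are also made by macrophages, and Ebf1 also by stromal cells. Pax5, a factor that sets the identity of B cells and was chosen after its values were seen, was at 0.452 CPM in Intact and 0.157 CPM in sub-SCI and was not called. Of 7 plasma cell genes tested, 3 were called higher, beside 16.6% of all genes tested (Xbp1, Sdc1 and Prdm1, which other cells also make). Jchain, the joining chain of secreted antibodies, was at 3.36 and 2.07 CPM and was not called.

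The genes whose 8 group means were most like those of the T cell genes were Lhx6 (Pearson r = 0.994), Snx2 (0.993), Pctp, Syncrip and Sparc (0.991 each), set beside the mean of the standardised T cell genes. The T cell genes themselves had r of 0.971 to 0.992 with that mean. Each of them is a part of the mean, so a high value is partly built in. For the B cell genes they were Rag1 (0.977), Rab3ip (0.929), Igll1 (0.919), Mfsd2b (0.913) and Tyr (0.907). These values describe 8 group means, which all share the step from Intact to injured cord and the depth of the same libraries. The genes listed beside the T cell genes reached values as high as the T cell genes themselves. How many of all genes tested do so is not given here.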

How the data were processed

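The files the authors deposited hold read counts of each gene that were not normalized. Per the labels and the study's methods, reads were trimmed with Trim Galore 0.5.0, those that HISAT2 2.1.0 mapped to the human genome (GRCh38) were removed, the rest were aligned to the rat genome (Rnor6), proper pairs were kept with SAMtools 1.9, and pairs were counted with featureCounts 1.6.4. The annotation release and strand setting are not given in the sources used here. In RefSeq, non-coding genes overlap Lck, Ms4a1 and Cd8b, whose reads cannot be told apart without strand. Of the repeated symbols, Hba-a2 was on more than 1 row and the first was used. Each library's own counts were equal to the joint table (26 of 26 libraries).

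Tests were run in edgeR 4.0.16 under R 4.3.3 (TMM, filterByExpr, glmQLFit and glmQLFTest), with all 26 libraries and 8 groups in 1 model, no covariates and Benjamini-Hochberg adjustment over 17990 genes. CPM used TMM library sizes, and RPKM divided them by the deposited gene length. The SE was the log2 fold change over the square root of F. The tests were tried on simulated counts. Likeness used log2 CPM with a prior count of 2. Alternatives were DESeq2 1.42.0 on all libraries or on the 2 groups, edgeR on the 2 groups, median-of-ratios size factors, no filter, the replicate number as a block, a term for replicate 1, and each library left out. The study's methods give 2 repeats for +MSC-2w, and the 3 labelled libraries were used. Of each gene list, genes called between +MSC and +PBS, and otherwise the 4 most abundant, were named in part or whole, and others are marked in the text. The members and lists were chosen with earlier results of these data known.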

Additional observations from a re-analysis of the deposited data

Results flagged for a closer look

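Cd8a in +MSC-4w replicate 4 was at 15.8 CPM, apart from the other 3 libraries of its group (10.8 to 10.9 CPM). The gap was 0.987 of the range of the group. Of 21 sets of 1 gene in 1 group of 4 libraries, this was the 1 set apart, and chance sets apart about 1 in 20.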

How the results depend on the processing

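Over all settings, 2219 fold changes were computed again, covering each gene in the injury and treatment comparisons and the called genes in the others, and 2160 kept both their direction and their side of the threshold. Of the others, 28 were no longer called, 9 were newly called and 22 turned in direction, and all 22 turns came from leaving out 1 library in fold changes that were not called. The count of genes called was 2 by DESeq2 on all libraries and 2 by DESeq2 on the 2 groups for +PBS-2w against Intact, 1 and 1 for +MSC-1w against +PBS-1w, 2 and 3 for +PBS-4w against sub-SCI, and 3 and 2 for +MSC-4w against sub-SCI. DESeq2 on the 2 groups called 1 gene for +MSC-2w against +PBS-2w. edgeR on the 2 groups called 1 for +MSC-4w against Intact, where Cd3e and Cd3g did not pass the filter on low counts, and 0 for +PBS-4w against +PBS-1w. The cause of the other differences was not tested.

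With 1 library left out in turn, the number called ranged from 1 to 2 for +PBS-2w against Intact, 3 to 5 for +PBS-4w against Intact, 2 to 5 for +MSC-1w against Intact and 2 to 5 for +MSC-4w against Intact. It ranged from 0 to 1 for the mean of 3 weeks, 1 to 2 for +PBS-4w against sub-SCI, 1 to 2 for +MSC-4w against sub-SCI and 0 to 1 for +PBS-4w against +PBS-1w. The log2 fold changes that turned ranged over these settings from -1.84 to 0.17 (Cd79b, +PBS-2w against Intact), -2.33 to 0.77 (Cd79b, +PBS-4w against Intact), -1.42 to 0.026 (Cd8a) and -0.20 to 0.13 (Lck) at 2 wpt, and -0.31 to 0.10 (Cd3d) over the 3 weeks. At 4 wpt they ranged from -1.06 to 0.12 (Cd3e), -0.42 to 0.61 (Cd3g), -0.28 to 0.44 (Lck) and -0.94 to 1.39 (Cd79b).

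No label pairs the libraries by replicate number, and whether the numbers mark a shared source was not tested. Same-numbered libraries of +MSC and +PBS had correlations of deviations of -0.00893 to 0.131 at 1 wpt, -0.0781 to -0.0549 at 2 wpt and 0.0158 to 0.233 at 4 wpt. In these weeks 4 of 6, 0 of 4 and 6 of 8 libraries correlated best with their own number, so most did at 1 and 4 wpt and none at 2 wpt. With the replicate number as a block, 27 of the 29 calls over 112 tests remained and no other was made. The 2 lost were Lck in +MSC-1w (1.52, adjusted p = 0.011) and Cd3g in +MSC-4w (3.14, adjusted p = 0.011) against Intact. The CD3 chains in Intact and the B cell genes throughout rest on few reads, which limits what these depths can resolve.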
